A study of Mus musculus with 6 samples.

Results

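The nuclear-encoded genes of oxidative phosphorylation were followed in basal keratinocytes of mouse ear skin. Genes were taken by name: every gene whose symbol starts with Nduf, Uqcr, Atp5 or Cox4 to Cox8, and Sdha, Sdhb, Sdhc and Sdhd, with 7 names that carry the pseudogene suffix -ps left out. This gave 93 of the 49671 genes in the table. By the enzyme they serve, 36 belonged to complex I, 4 to complex II, 8 to complex III, 20 to complex IV and 15 to complex V. Another 8 were Ndufaf assembly factors of complex I, and Atp5s and Atp5sl, 2 genes with an Atp5 name that are not subunits of the enzyme, were kept apart.

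The study asked how the sex of the animal and castration relate to gene expression in stem and progenitor cells of the skin. The 3 groups were CD1 mice, an outbred stock: males that had not been castrated (here intact males), females, and castrated males. The labels name no genetic change in any group, and the sources used here do not give ages or the time since castration. Living ear cells that carried integrin alpha 6 and lacked CD34 were sorted, that is, basal cells from between the hair follicles without the follicle bulge. Each group had 2 libraries, and each library held RNA of 100000 cells pooled from 2 mice of 1 litter. The p-values therefore reflect how far pools of a group differ, and litter and group cannot be told apart.

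Oxidative phosphorylation turns the energy of nutrients into ATP at the inner membrane of mitochondria. Complex I takes electrons from NADH and complex II takes them from succinate. Both pass them through coenzyme Q to complex III, then through cytochrome c to complex IV, which reduces oxygen. Complexes I, III and IV pump protons, and complex V, the ATP synthase, lets the protons flow back to make ATP. The core of most complexes is encoded in part by the mitochondrial genome, while the genes described here are copied in the nucleus and their proteins imported. Interfollicular keratinocytes use both glycolysis and respiration.

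Levels are CPM, the reads of a gene relative to the scaled size of its library, and fold changes are differences of log2(CPM + 0.5) with a standard error. A gene was called changed at a Benjamini-Hochberg adjusted p below 0.05 in limma, over the 15413 genes that passed a filter on low values. Libraries held 8412487 to 9648154 reads, so that 1 read was worth 0.102 to 0.128 CPM after scaling. The 6 basal keratinocyte markers, among them Krt5 and Krt14, summed to 31827 to 37049 CPM, and none was called in any comparison. Among the marker lists of other cells, those of neutrophils and macrophages and of Langerhans and dendritic cells had higher sums and calls in females. The 6 neutrophil and macrophage markers summed to 273 and 988 CPM in the females against 17.0 to 28.2 in the other 4 libraries, mostly through S100a8 and S100a9. These 2 and Cxcr2, at 3.37 and 11.8 CPM in the females against 0.705 to 2.96 elsewhere, were called higher in females than in intact males, Csf1r lay between 14.2 and 22.5 CPM in all libraries, and Adgre1 and Lyz2 had at most 1.25 CPM. The 5 Langerhans and dendritic cell markers summed to 1065 and 2328 CPM in the females against 362 to 454 elsewhere, through Cd74, H2-Aa and H2-Ab1, while Cd207 lay between 5.01 and 8.46 CPM in all 6 libraries. Of the 4 markers of spinous keratinocytes, the layer above the basal cells, Krt1 (1.82 ± 0.24, adjusted p = 0.00862) and Krtdap (0.78 ± 0.17, adjusted p = 0.0385) were called higher in females than in intact males and Dsg1a lower (-0.69 ± 0.14, adjusted p = 0.0301). Their sum was 1749 and 1902 CPM in females, within the 1615 to 2144 of the other libraries. The 4 general leukocyte markers summed to 23.4 and 28.7 CPM in the females against 18.3 to 24.3 elsewhere, with no call. Skeletal muscle markers summed to 8.08 and 7.44 CPM in the females against 2.47 to 6.26 elsewhere, with no call, and adipocyte markers to at most 1.70 CPM. Markers of the hair follicle bulge, T cells, melanocytes, fibroblasts, endothelial cells and erythroid cells had no call in any comparison. Except for melanocytes, their sums were highest in male replicate 1. Erythroid markers had 33.2 CPM there against 3.98 to 8.54 elsewhere, and fibroblast markers 26.9 against 7.69 to 14.8. Melanocyte markers summed to 70.0 CPM in castrated male replicate 2 against 25.7 to 38.1 elsewhere. The part of other cells, or of the state of the keratinocytes, in the results below was not tested, and in bulk RNA fewer cells of a type and less RNA per cell cannot be told apart.

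Females had more RNA of oxidative phosphorylation genes than intact males, in all 5 complexes. Of the 93 genes, 87 passed the filter and 6 did not, all 6 of them complex IV isoforms. Summed over the 93 genes, the level was 12892 and 12699 CPM in intact males, 15799 and 20290 CPM in females, and 12194 and 13228 CPM in castrated males. The genes took 1.60% and 1.88% of the reads in the females, against 1.26% to 1.34% in the other 4 libraries. Both female libraries stood above the other 4, and the castrated males overlapped the intact males. Complex V contributed most, with a summed level of 4106 ± 46.3 CPM in intact males, 6127 ± 1282 in females and 3976 ± 349 in castrated males (SD, n = 2 each). Complex I followed with 3892 ± 97.2, 5057 ± 722 and 3824 ± 167 CPM (SD, n = 2 each).

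**Figure D1:**
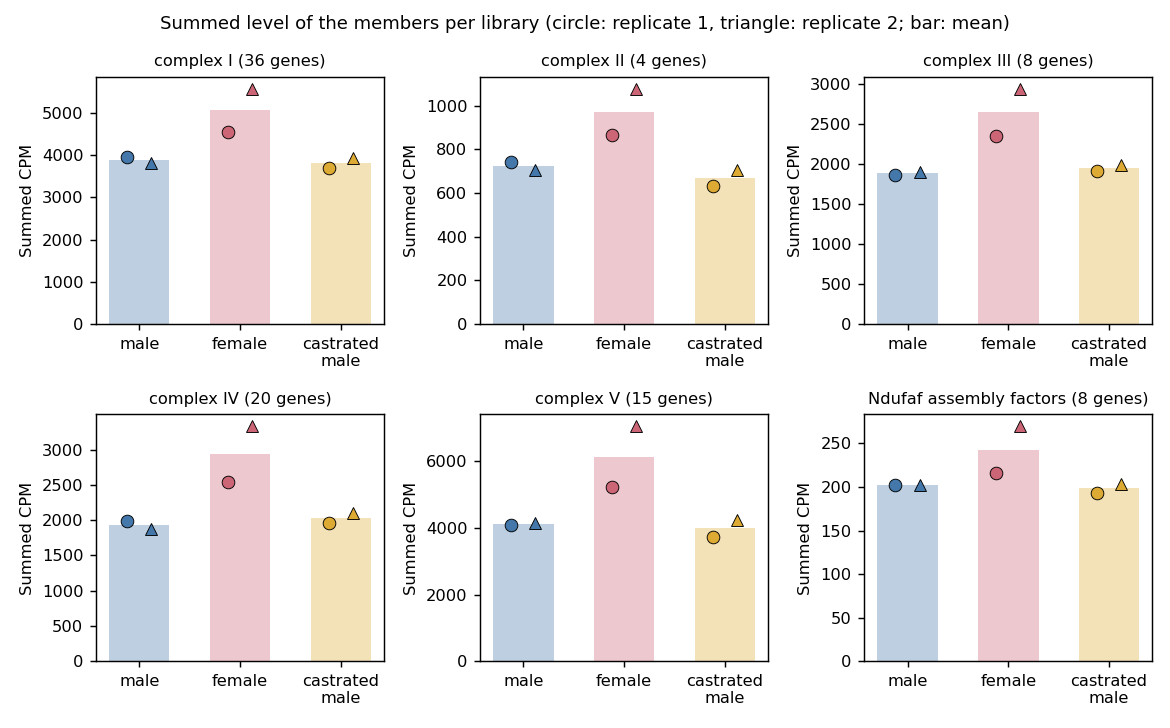
Summed CPM of the genes of each complex and of the Ndufaf factors, per library (points) with the group mean (bars), on axes that start at 0. In every panel both female libraries lie above the intact and castrated males, and female replicate 2 lies above female replicate 1.

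Of the 87 tested genes 18 were called higher in females than in intact males, where 3.7% of all tested genes were called higher. None, 0 of 87, was called lower, against 2.39% of all genes. At an unadjusted p below 0.05, limma gave 62 higher and 0 lower, where 13% and 11.9% of all tested genes passed. The 18 calls became 1 with no filter on low values, 1 with no intensity trend and 4 with only the females and intact males in the fit. The fold change was positive for 83 of the 87 and negative for 4, and its median was 0.44, against -0.01 over all tested genes. For 75 genes both females lay above both intact males (26.6% of all genes), and for 2 both lay below (27.2% of all genes). Complex IV had the highest median, 0.67, with 7 of its 14 tested genes called. The median was 0.53 in complex V (4 of 15 called), 0.49 in complex III (3 of 8), 0.39 in complex II (1 of 4) and 0.39 in complex I (2 of 36). The 8 Ndufaf factors had a median of 0.20 with 1 called. Differences between complexes were not tested.

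The 2 female pools differed in degree. Female replicate 2 was the highest of the 6 libraries for 80 of the 87 genes, as it was for 31.6% of all tested genes, and it exceeded female replicate 1 for 85 of them (53.6% of all genes). The median difference between the female pools was 0.30 on the log2 scale over the 87 genes and 0.03 over all tested genes. Both females lay above all 4 libraries of intact and castrated males for 74 genes, as they did for 19.2% of all tested genes. The count of calls moved with each library. It was 1 without female replicate 2, when Cox7b was the remaining call, and 50 without female replicate 1. It was 6 and 5 without male replicates 1 and 2, and 3 and 4 without castrated male replicates 1 and 2, whose spread enters the same fit. The median stayed positive, at 0.27 without female replicate 2 and 0.60 without female replicate 1.

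**Figure D2:**
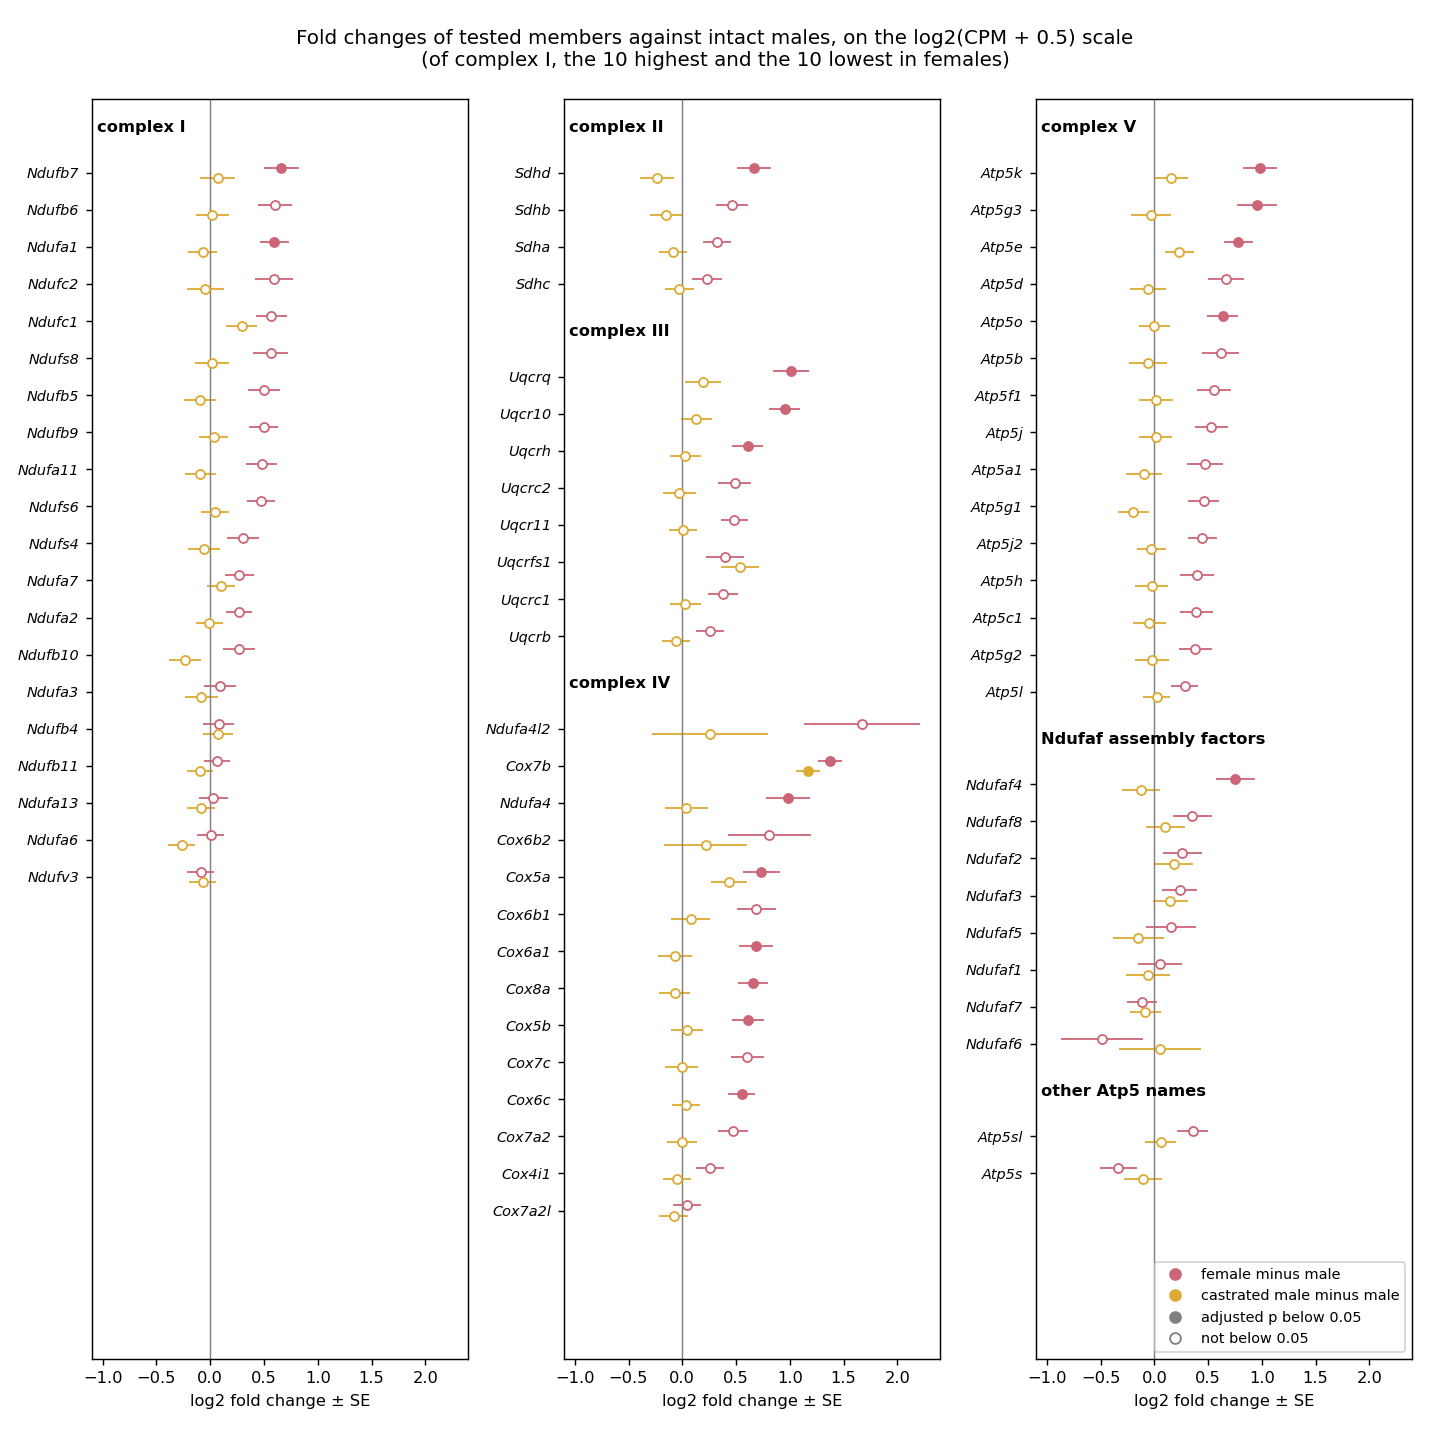
Fold change with its standard error of tested genes in females (red) and castrated males (yellow) against intact males, by complex. Of the 36 genes of complex I the 10 highest and the 10 lowest in females are drawn. Filled points have an adjusted p below 0.05: 18 genes in females, and Cox7b in castrated males, whose other points lie between -0.26 and 0.54.

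Complex I, the entry for electrons from NADH, had small positive fold changes in most of its subunits. Fold changes ran from -0.09 to 0.66, and 35 of 36 were positive, as were 7530 of all 15413 tested genes. At an unadjusted p below 0.05, limma gave 26 higher and 0 lower, where 13% and 11.9% of all tested genes passed. Ndufv1, the core subunit that binds NADH, was among the subunits with high levels. It had 225 and 202 CPM in intact males, 251 and 338 in females, with 201 and 210 in castrated males. Both females lay above all other libraries, but the gene was not called, with a fold change of 0.45 ± 0.15 and an adjusted p of 0.118.

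The called genes of complex I were Ndufa1 and Ndufb7, both small accessory subunits of the membrane arm. Ndufa1, on chromosome X, had 60.1 and 54.5 CPM in intact males, 81.6 and 92.2 in females, with 53.5 and 55.4 in castrated males. Its fold change in females was 0.60 ± 0.13 (adjusted p = 0.0376). Ndufb7 had 76.1 and 70.4 CPM in intact males, 99.3 and 135 in females, with 79.8 and 73.8 in castrated males, a fold change of 0.66 ± 0.16 (adjusted p = 0.0483). The female values of both genes lay apart from the other 4 libraries. Ndufb11, also on chromosome X, had 147 and 139 CPM in intact males and 142 and 156 in females, a fold change of 0.06 ± 0.12 with overlapping groups. At the low end stood Ndufa6, with 131 and 117 CPM in intact males, 117 and 132 in females, with 102 and 105 in castrated males. Its female and male values overlapped and its fold change was 0.00 ± 0.12. Ndufv3, an accessory subunit of the NADH-binding module, had the lowest fold change of the complex, -0.09 ± 0.12 (adjusted p = 0.701).

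Complex II, succinate dehydrogenase, is encoded wholly in the nucleus and also works in the tricarboxylic acid cycle. Sdhd, 1 of its 2 membrane anchors, had 127 and 120 CPM in intact males, 169 and 230.0 in females, with 99.9 and 110.1 in castrated males. The 3 groups did not overlap, and females were higher than intact males by 0.67 ± 0.16 (adjusted p = 0.0432). The other 3 genes had positive fold changes that were not called. Sdhb, the iron-sulfur subunit, had 219 and 194 CPM in intact males, 251 and 322 in females, with 180 and 192 in castrated males, with a fold change of 0.46 ± 0.15 in females (adjusted p = 0.0968). Sdha, the flavoprotein that binds succinate, had a fold change of 0.32 ± 0.13 and an adjusted p of 0.171, and Sdhc, the other anchor, 0.23 ± 0.14 and 0.339.

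In complex III the 3 calls fell on small accessory subunits. Uqcrq had 94.4 and 96.1 CPM in intact males, 162 and 228 in females, with 104 and 114 in castrated males, a fold change of 1.01 ± 0.17 in females (adjusted p = 0.0161). Uqcr10 had 104 and 96.1 CPM in intact males, 171 and 221 in females, and 109.5 in both castrated male libraries, a fold change of 0.95 ± 0.14 (adjusted p = 0.0124). Both genes were higher in each female pool than in any other library. Uqcrh, the hinge protein next to cytochrome c1, was also called, at 0.61 ± 0.14 (adjusted p = 0.0456). Of the larger core subunits in the name rule none was called, while cytochrome c1, whose gene Cyc1 falls outside that rule, is given further on. Uqcrc1, the most abundant gene of the complex, had 991 and 1035 CPM in intact males, 1189.5 and 1459.8 in females, with 1011 and 1057 in castrated males, with a fold change of 0.38 ± 0.14 (adjusted p = 0.144). Uqcrc2 had a fold change of 0.49 ± 0.15 (adjusted p = 0.0922). The difference in fold change between small and core subunits was not tested.

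Complex IV, cytochrome c oxidase, had the highest share of called genes, and its 7 calls were Cox7b, Ndufa4, Cox8a, Cox6a1, Cox5a, Cox6c and Cox5b. All encode small subunits that surround the core made by the mitochondrial genome. Cox7b, on chromosome X, had 81.9 and 84.4 CPM in intact males, 214 and 219 in females, with 189 and 185 in castrated males. The 2 pools of each group were close together, and the females lay 1.38 ± 0.11 above the intact males on the log2 scale (adjusted p = 0.000833). Ndufa4, named for complex I but a subunit of complex IV, had 136 and 138 CPM in intact males, 214 and 344 in females, with 131 and 151 in castrated males. Its fold change in females was 0.98 ± 0.20 (adjusted p = 0.0292), with the female pools further apart from each other than for Cox7b. Cox8a had 116 and 114 CPM in intact males, 161 and 204 in females, with 103 and 115 in castrated males (0.66 ± 0.14, adjusted p = 0.0341). The fold changes of Cox6a1, Cox5a, Cox6c and Cox5b ran from 0.55 to 0.74. Cox4i1, which forms the regulatory subunit that binds ATP and is the most abundant member of the complex, had 598 and 548 CPM in intact males, 629 and 744 in females, with 548 and 558 in castrated males, and was not called (0.26 ± 0.13, adjusted p = 0.262).

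Several complex IV subunits come in isoforms tied to tissues, and the basal keratinocytes used the general forms. Cox6a2, Cox7a1 and Cox8b, the forms of heart and skeletal muscle, had at most 4 reads in any library, where Cox6a1, Cox7a2 and Cox8a had mean levels of 223, 113 and 135 CPM. Cox7b2 and Cox8c, known from testis, had 0 reads in all 6 libraries, which allows up to 0.307 to 0.385 CPM in a library, the worth of 3 reads. Cox4i2, the form of lung and low oxygen, had 0 to 7 reads. None of these 6 genes passed the filter, and no comparison was made. Cox6b2, another testis form, passed it at a mean of 1.02 CPM, where Cox6b1 had 140.0 CPM. Those limits cover counting error only.

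Ndufa4l2, a relative of Ndufa4 known to be induced by low oxygen, was the isoform that varied most. It had 84.4 and 24.4 CPM in intact males, 98.9 and 216 in females, with 42.8 and 69.3 in castrated males. Its fold change in females was the highest of all 87 genes, 1.67 ± 0.54, but the pools of intact males and of females lay far apart, and it was not called (adjusted p = 0.0999). Its fold change was 0.76 without male replicate 2, and 2.56 without male replicate 1, when it was called (adjusted p = 0.0168).

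In complex V the fold changes ran from 0.28 to 0.98, so all 15 were positive, as were 7530 of all 15413 tested genes. Both females lay above both intact males in all 15, as they did for 26.6% of all tested genes. The 4 called genes were Atp5k, Atp5g3, Atp5e and Atp5o. Atp5k, subunit e, which helps ATP synthase form dimers, had 28.1 and 25.4 CPM in intact males, 48.9 and 58.0 in females, with 28.1 and 31.8 in castrated males. Its fold change was 0.98 ± 0.16 (adjusted p = 0.0158). Atp5e, the epsilon subunit of the central stalk, was higher by 0.78 ± 0.13 (adjusted p = 0.0197), and Atp5o, which joins the peripheral stalk to the catalytic head, by 0.64 ± 0.14 (adjusted p = 0.0384). The alpha and beta subunits of the catalytic head had the highest levels of the complex. Atp5b, the beta subunit and the most abundant of the 93 genes, had 1153 and 1190.3 CPM in intact males, 1536 and 2103 in females, with 1044 and 1210.4 in castrated males. Its female values stood clear of the rest without a call (0.62 ± 0.17, adjusted p = 0.0701). Atp5a1, the alpha subunit, had 865 and 897 CPM in intact males, 1043 and 1432 in females, with 764 and 888 in castrated males (0.47 ± 0.17, adjusted p = 0.131).

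The genes Atp5g1, Atp5g2 and Atp5g3 encode the same mature subunit c, which forms the rotor ring, behind different import signals. Atp5g3 had 197 and 200 CPM in intact males, 313 and 475 in females, with 183 and 206 in castrated males. It was the form that passed the test, at 0.96 ± 0.18 (adjusted p = 0.0251). Atp5g1 had 166 and 171 CPM in intact males, 209 and 256 in females, with 135 and 160.0 in castrated males, with a fold change of 0.46 ± 0.14 in females (adjusted p = 0.0909). Atp5g2 had 53.6 CPM in both intact males, 62.4 and 78.2 in females, with 48.9 and 56.9 in castrated males (0.38 ± 0.15, adjusted p = 0.173). Per kilobase of transcript the mean level was 365 CPM for Atp5g3, 101 for Atp5g2 and 68.3 for Atp5g1, the highest for Atp5g3. The median annotated lengths used were 718.5, 586 and 2675.5 bases. Without division by length the mean levels were 263, 58.9 and 183 CPM, so the order of Atp5g1 and Atp5g2 depends on the annotated length. Atp5g1 and Atp5g2 have near-identical copies that may share their reads, such as Gm10039 with 185 to 388 reads, which leaves their levels uncertain. Whether the 3 fold changes differ from each other was not tested.

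The Ndufaf assembly factors, which help build complex I and leave it afterwards, had mixed fold changes. Their fold changes in females ran from -0.49 to 0.75. For 4 of the 8 both females lay above both intact males (26.6% of all genes), and for 0 both lay below (27.2%). In the other 4 the groups overlapped. Ndufaf4 was called: it had 39.7 and 39.8 CPM in intact males, 56.6 and 80.3 in females, with 38.0 and 35.0 in castrated males (0.75 ± 0.18, adjusted p = 0.0437). The other Ndufaf gene with a high level, Ndufaf7, a methyltransferase that acts on a complex I subunit, had 57.4 and 48.8 CPM in intact males and 46.8 and 51.0 in females, a fold change of -0.11 ± 0.14 with overlapping groups. Ndufaf6, at a mean of 1.62 CPM, gave the lowest value of the 87 genes, -0.49 ± 0.38 (adjusted p = 0.471). The factors were scarce next to the subunits, with a summed level of 202 ± 0.520 CPM in intact males and 243 ± 38.0 in females (SD, n = 2 each). Atp5sl and Atp5s, kept apart from complex V, had fold changes of 0.36 ± 0.14 and -0.33 ± 0.18, neither called.

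**Figure D3:**
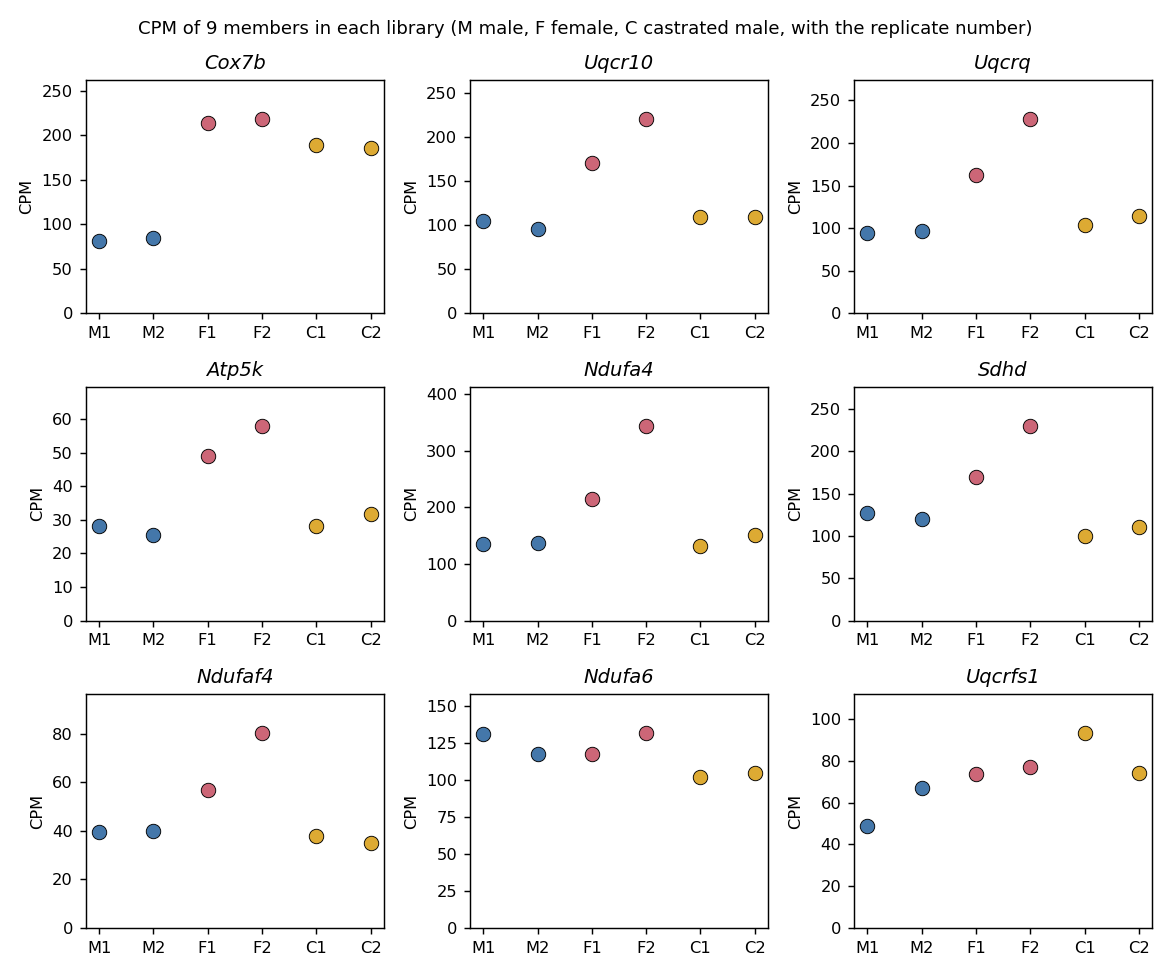
CPM of 9 genes in each of the 6 libraries (M intact male, F female, C castrated male, with the replicate number), on axes that start at 0. Most genes are high in both female libraries alone, Cox7b and, with smaller differences, Uqcrfs1 are higher in females and castrated males than in intact males, and for Ndufa6 the females overlap the intact males.

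In castrated males these genes stood near the level of intact males, with the exception of Cox7b. A positive fold change was seen for 40 of the 87 genes and a negative one for 47, and the median was -0.02, against 0.0009 over all tested genes. Of the 87, 1 was called higher (0.013% of all tested genes) and 0 lower (0.026%), and at an unadjusted p below 0.05 limma gave 3 higher and 0 lower, where 3.1% and 2.83% of all tested genes passed. Both castrated pools lay above both intact males for 13 genes (17.3% of all genes) and below them for 9 (18.2%). The medians were -0.03 in complex I, -0.12 in complex II, 0.03 in complex III, 0.04 in complex IV, -0.03 in complex V and -0.0036 in the Ndufaf factors. With 2 pools a group, changes of this size were within the spread between pools.

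Cox7b rose from 83.1 ± 1.73 CPM in intact males to 187 ± 2.44 in castrated males (SD, n = 2 each), a fold change of 1.17 ± 0.11 (adjusted p = 0.0107). It was 1 of 6 genes called in this comparison over the whole table. The difference in Cox7b between castrated males and females was not called (-0.21 ± 0.11, adjusted p = 0.306), although both castrated pools lay below both females. The call was lost without castrated male replicate 1 (adjusted p = 0.247) and without castrated male replicate 2 (adjusted p = 0.219), when the remaining pool has no partner, while the fold change stayed at 1.16 and 1.18. It was also lost with no filter on low values (adjusted p = 0.0552) and with no intensity trend (adjusted p = 0.171).

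Magt1, a neighbour of Cox7b on chromosome X, also had both female and both castrated pools above the intact males. Cox7b lies at chrX:106015700-106022450 on the plus strand of GRCm38. Another 5 tested genes lay within 500 kb of it. Magt1, which takes part in magnesium transport and protein glycosylation, had 54.4 and 63.1 CPM in intact males, 93.0 and 94.0 in females, with 93.3 and 109 in castrated males. It was called in females (0.67 ± 0.14, adjusted p = 0.0292) and not in castrated males (0.78 ± 0.14, adjusted p = 0.218). Pgk1, an enzyme of glycolysis, was called in females (1.36 ± 0.23, adjusted p = 0.0171) but had a fold change of 0.27 ± 0.23 in castrated males, and Atrx, Atp7a and Taf9b had fold changes of -0.14, -0.44 and -0.55 in females and between -0.09 and -0.03 in castrated males. Since the mice were outbred and each pool came from 1 litter, litter and group cannot be told apart for this region.

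The other 2 genes with an unadjusted p below 0.05 in castrated against intact males were not called, and a count of 3 in 87 is near the share of all tested genes. Uqcrfs1, the Rieske iron-sulfur protein that takes electrons from coenzyme Q in complex III, had 48.8 and 66.9 CPM in intact males, 73.9 and 77.1 in females, with 93.3 and 74.2 in castrated males. Its fold change in castrated males was 0.54 ± 0.18 (adjusted p = 0.740). Cox5a, a nuclear-encoded subunit of complex IV, had 86.6 and 98.2 CPM in intact males, 130.1 and 182 in females, with 121 and 129 in castrated males. In castrated males it had a fold change of 0.43 ± 0.17 (adjusted p = 0.794), and in females it was called at 0.74 ± 0.17 (adjusted p = 0.0403). In both genes the castrated pools lay above the intact males.

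Castrated males had less of these RNAs than females. This comparison shares its female libraries with that of females and intact males. A negative fold change was seen for 82 of the 87 genes, the median was -0.43 against 0.01 over all tested genes, 8 were called lower (1.15% of all genes) and 0 higher (0.571%). At an unadjusted p below 0.05, limma gave 60 lower (11.3% of all genes) and 0 higher (10.4%). Both castrated pools lay below both females for 77 genes (28.3% of all genes) and above them for 1 (29.4%). The 8 called genes were Ndufa1, Sdhd, Uqcr10, Uqcrq, Cox8a, Atp5g3, Atp5k and Ndufaf4, and all 8 were also called between females and intact males. Atp5g3 fell by 0.98 ± 0.18 (adjusted p = 0.0415), Sdhd by 0.91 ± 0.16 (adjusted p = 0.0333), Ndufaf4 by 0.88 ± 0.18 (adjusted p = 0.0496) and Uqcr10 by 0.82 ± 0.14 (adjusted p = 0.0350). Ndufa4, at -0.94 ± 0.20, just missed the threshold (adjusted p = 0.0576). The count was 0 with no filter on low values or no intensity trend, and 4 with a pseudocount of 0.1, a stricter filter or the length correction. It was 0 without female replicate 2, castrated male replicate 1 or castrated male replicate 2, and 49 without female replicate 1. The median was -0.29 without female replicate 2 and -0.61 without female replicate 1.

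The promoters of 3 of the 4 genes with the smallest p between females and intact males are shown to set the start regions of called genes from 3 complexes side by side. Each is the strand of the gene from 250 bases before to 50 bases after the start, from RefSeq on GRCm38.p6. Cox7b covers chrX:106015450-106015749 on the plus strand, Uqcr10 chr11:4704295-4704594 on the minus strand, and Atp5k chr5:108434350-108434649 on the minus strand. No window was found for Uqcrq. Capitals mark the matches to 4 motifs of factors known to act on genes of respiration, GCATGCGC for NRF1, CCGGAAG for ETS factors such as GABPA, AAGATGGC for YY1 and AAGGTCA for the estrogen-related receptors, searched on both strands.
Cox7b: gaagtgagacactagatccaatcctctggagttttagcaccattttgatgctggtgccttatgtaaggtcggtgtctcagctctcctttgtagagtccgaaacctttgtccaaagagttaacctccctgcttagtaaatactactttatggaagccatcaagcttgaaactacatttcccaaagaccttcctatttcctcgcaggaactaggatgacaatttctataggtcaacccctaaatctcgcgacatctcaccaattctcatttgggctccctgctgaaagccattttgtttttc
Uqcr10: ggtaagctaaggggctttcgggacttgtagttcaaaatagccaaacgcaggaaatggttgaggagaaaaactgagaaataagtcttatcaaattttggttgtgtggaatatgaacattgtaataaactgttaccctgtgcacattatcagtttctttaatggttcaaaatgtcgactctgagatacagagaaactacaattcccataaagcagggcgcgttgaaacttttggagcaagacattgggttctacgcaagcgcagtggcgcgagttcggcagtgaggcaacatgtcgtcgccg
Atp5k: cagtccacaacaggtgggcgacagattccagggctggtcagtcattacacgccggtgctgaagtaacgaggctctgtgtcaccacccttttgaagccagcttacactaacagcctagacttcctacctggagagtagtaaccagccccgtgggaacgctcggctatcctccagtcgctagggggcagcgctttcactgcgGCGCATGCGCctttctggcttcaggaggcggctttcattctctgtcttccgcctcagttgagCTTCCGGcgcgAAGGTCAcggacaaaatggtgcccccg

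Cox7b and Uqcr10 held none of the 4 motifs in these windows. Atp5k held 4 matches: the NRF1 motif on both strands at overlapping places that begin 48 and 50 bases before the start, the ETS motif on the opposite strand 12 bases after it and the estrogen-related receptor motif 23 bases after it. Among the 80 windows of the tested genes, some of which had 2, 15% held the NRF1 motif, against 2.71% of all 32851 mouse windows. The ETS motif stood in 22.5% against 8.86%, the YY1 motif in 16.2% against 2.75%, and the estrogen-related receptor motif in 10.0% against 4.72%. Of the 74 tested genes with a window, 36 held none of the 4 motifs. A match describes letters and not binding.

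These genes have short transcripts, and length moved with the female libraries. The median transcript length was 782 bases over the 87 genes and 2387 over all tested genes. Across the 15275 other tested genes with a length, Spearman's rho between length and the fold change in females was -0.13, a correlation across genes within the same 4 libraries, whose points share depth and scaling. Per library the rho of length with the deviation from the mean of all libraries was lowest in female replicate 2, at -0.15, and highest in castrated male replicate 1, at 0.12. The 2745 other genes with lengths within the interquartile range of the 87, 574 to 1387 bases, had a median fold change of 0.07 in females, with 57.0% positive and 3.93% called higher. After the trend with length over the other genes was removed, the median of the 87 genes was 0.39, 79 were positive and 13 were called higher in females, all 13 among the 18. Within the 87 genes, rho with the fold change in females was -0.30 for length and 0.22 for mean level. The part of RNA quality in this trend was not tested.

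**Figure D4:**
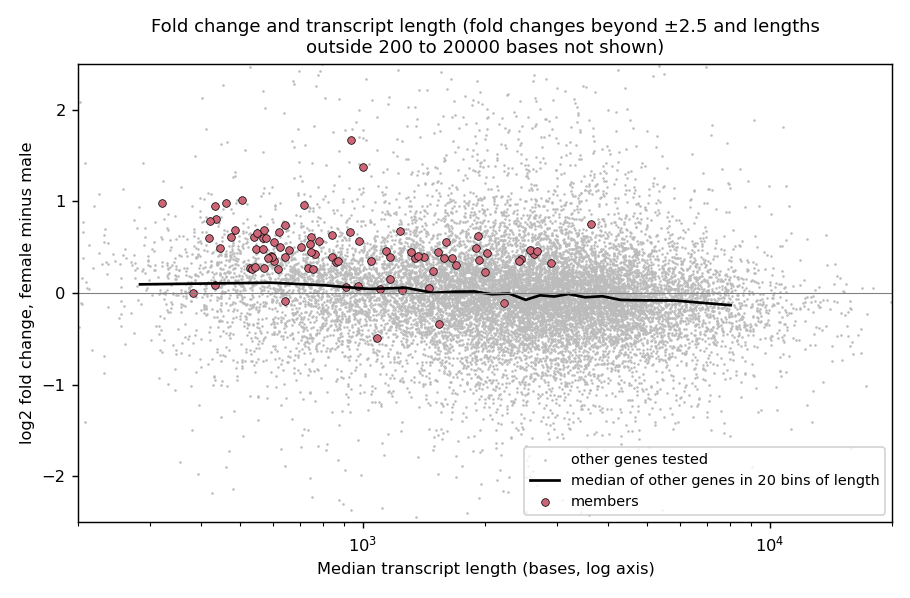
Fold change in females against intact males by median transcript length (log axis) for the 87 genes (red) and the other tested genes (grey), with the median of the other genes in 20 bins of length (line). The genes of oxidative phosphorylation sit above the line at most lengths, and the line itself falls from short to long transcripts.

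Many of these genes have processed copies in the genome that can take their reads, or overlap another gene. A stretch of at least 200 bases with at least 95% identity to another gene in the same orientation was found for 23 of the 87. Genes with a match on the opposite strand alone, such as Ndufb5 with Mrpl47, were not counted among them. The sources used here do not give the strand setting of the counting. Of the 23, 5 were called higher in females, Cox7b, Cox6c, Cox5b, Atp5k and Atp5o, and the median fold change of the 23 was 0.40. The other 64, with no such copy or with an opposite-strand match alone, had 13 calls and a median of 0.45. The copies of Cox7b, Gm13771 and Gm19503, had 0 to 9 reads in each library, against 718 to 2095 for Cox7b. Gm5436, a copy of Atp5o, had 129 to 250 reads and Gm11273, a copy of Cox5b, 41 to 60. The 7 names with -ps had 0 to 13 reads. Values of genes with such copies are uncertain to the extent that reads were split between the copies.

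Other genes of respiration were counted from lists that did not depend on the name rule. Of 12 tested carriers and subunits with other names, 4 were called higher in females than in intact males and 0 lower, against 3.7% and 2.39% of all tested genes, with a median of 0.37. They were Cyc1, the cytochrome c1 of complex III (0.96 ± 0.14, adjusted p = 0.0104), the ATP synthase subunits 2010107E04Rik (0.98 ± 0.18, adjusted p = 0.0225) and Usmg5 (0.62 ± 0.14, adjusted p = 0.0408), and Higd1a, a small protein induced by low oxygen that binds complex IV (0.83 ± 0.16, adjusted p = 0.0252). Cyc1 had 108 and 113 CPM in intact males, 190.5 and 243 in females, with 140.4 and 143 in castrated males, so that the 3 groups did not overlap. Slc25a5, an ATP and ADP carrier of the inner membrane, was the single call among 16 genes of membrane transport and import, a share near that of all genes, with 909 and 941 CPM in intact males, 1332 and 1818 in females, with 903 and 1017 in castrated males (0.75 ± 0.17, adjusted p = 0.0376).

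Assembly factors outside the name rule had no calls, and with 3.7% of all tested genes called higher and 2.39% lower, lists of this size can hold few. None of 35 tested assembly factors of complexes II to V and none of 7 further factors of complex I was called in either direction. Their medians were 0.06 and 0.07. Among the 35, limma gave the smallest p to Cox10, which acts in a step toward the heme A of complex IV (0.63 ± 0.19, adjusted p = 0.0861). Coenzyme Q synthesis had 0 of 13 called higher and 1 lower: Coq8a, an atypical kinase, had 304 and 260.4 CPM in intact males, 192 and 190.0 in females, with 226 and 244 in castrated males (-0.56 ± 0.12, adjusted p = 0.0367). Of 17 tested genes of pyruvate dehydrogenase and the tricarboxylic acid cycle all had a positive fold change, with a median of 0.33 and 0 called. Over all 15413 tested genes 7530 were positive, and the median was -0.01. Of 11 tested protein genes of the mitochondrial genome 10 were positive and 0 called. Some of them were hardly counted: mt-Co2, mt-Co3, mt-Atp6 and mt-Atp8 lay between 0.705 and 6.03 CPM, and mt-Nd3 and mt-Nd4l, with at most 4 reads, were not tested, while mt-Cytb had 2117 to 3064 CPM. The summed level of the mitochondrial genes was 5830 and 5891 CPM in intact males, 7319 and 8312 in females, with 6168 and 6407 in castrated males, so both females lay above the rest here too. The 12 regulators of mitochondrial biogenesis had 0 calls and a median of 0.23, and Ppargc1b, a coactivator of respiration genes, had the smallest p (0.52 ± 0.16, adjusted p = 0.0923). In castrated against intact males no gene of these 8 lists was called, and in castrated males against females 2010107E04Rik was the single call, lower by the test (-0.91 ± 0.18, adjusted p = 0.0482).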

How the data were processed

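RNA of sorted basal keratinocytes was sequenced in 6 libraries, 2 each of intact males, females and castrated males. Reads were handled by the authors with HTSeq 0.11.1, STAR 2.7.5a, FastQC and Picard on GRCm38 or mm10, per the submitters' processing notes. The sources used here do not give the annotation or the strand setting. Each value of the deposited table is a score: counts scaled in each library to about the same total and rounded, as read from the values. Within rounding (0.5), more than 99.9% of the values of a library were multiples of 1 step, and division by the step gave whole reads. The 2 libraries of a group differed by more than sampling noise (chi-square per degree of freedom 4.66 to 13.2).

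Because the deposited scores are not counts, limma 3.58.1 (R 4.3.3) was used on log2(CPM + 0.5), with TMM scaling (factors 0.927 to 1.03) and an intensity trend. All 6 libraries entered 1 fit with 1 mean per group, 3 residual and 5.82 prior degrees of freedom. Genes needed 1.16 CPM, worth 10 reads at the median depth, in at least 2 libraries and 15 reads in total. Adjusted p-values are two-sided Benjamini-Hochberg values over all 15413 tested genes, and the adjusted p is limma's wherever one is printed. A fold change on this scale understates the change of genes with few reads. The procedure was tested on simulated data. Transcript lengths are medians over GENCODE transcripts of GRCm38, and 99.7% of tested genes had one.

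The genes, lists and rules were chosen with earlier results of these data known. Named by rule were the called genes of each complex (at most 6, by p), the 2 most abundant of each complex (1 of complex I is not reported here), the isoform families, and up to 2 genes of each other list by p. Ndufa6, Ndufv3, Ndufb11, Ndufaf6, Uqcrfs1, Cox5b, Sdhc, Usmg5, Higd1a, the cell markers, the mitochondrial genes, the neighbours of Cox7b and the copies were named after their values were seen. The alternatives tried were other pseudocounts, filters, scalings, a replicate block, a length correction, fits of 2 groups and leaving out each library.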

Additional observations from a re-analysis of the deposited data

How the results depend on the processing

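The number of genes called higher in females than in intact males (18) stayed within 1.5 times under other pseudocounts, a stricter filter, other scalings (up to 23 with library totals only) and the length correction (13). It was 1 with no filter on low values, 1 with no intensity trend and 4 with only the 2 groups compared, and 1 to 50 with 1 library left out. The call of Cox7b in castrated against intact males was lost (0 called) with no filter on low values and with no intensity trend, and 0 to 1 were called with 1 library left out. The number called lower in castrated males than in females (8) was 4 with a pseudocount of 0.1, 0 with no filter, 4 with a stricter filter, 0 with no intensity trend and 4 with the length correction, and 0 to 49 with 1 library left out. Replicate numbers pair no animals across groups, and same-numbered libraries deviated with correlations of -0.15, -0.01 and 0.19. With the replicate block 17 genes were called higher in females than in intact males (14 of them among the 18), 1 in castrated against intact males and 3 lower in castrated males than in females (2 of them among the 8). The replicate block with the length correction gave 12, 1 and 3. With 1 library left out, the median fold change in females against intact males ranged from 0.27 to 0.60 over all 87 genes, 0.24 to 0.55 in complex I, 0.24 to 0.55 in complex II, 0.36 to 0.66 in complex III, 0.45 to 0.84 in complex IV, 0.31 to 0.75 in complex V and 0.0247 to 0.29 in the Ndufaf factors. In castrated males against females it ranged from -0.61 to -0.29 over all 87 genes, -0.55 to -0.26 in complex I, -0.67 to -0.35 in complex II, -0.66 to -0.32 in complex III, -0.77 to -0.37 in complex IV, -0.77 to -0.34 in complex V and -0.22 to -0.0147 in the Ndufaf factors. In each case both ends came from leaving out a female library. Among the named genes no called fold change turned its direction under any alternative, 199 values lost a call, 40 gained one and 1641 stayed on their side of the threshold. The cause of these shifts was not tested, and leaving out a library also lowers the number of libraries in the fit. Depth limits the 6 untested genes, Cox6b2 and Ndufaf6, where a few reads decide a value.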
